A study of Prunus persica with 8 samples.

Results

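In flower buds of peach, 42 of the 12883 annotated genes considered had higher transcript levels at the middle stages of winter chilling sampled than at both the first and the last (0.326% of those considered). They were chosen on the measured values: the lower of the levels at 200 and 475 chilling units (200CU and 475CU) had to exceed the higher of the levels at 0 and 770 chilling units (0CU and 770CU) by 0.75 or more, measured as log2(FPKM + 1). This gap is called the margin here. FPKM counts the sequenced fragments of a transcript per unit of its length and of the library's size. The genes considered had PRUPE_ identifiers and at least 5 FPKM in their highest stage, and the table held 22285 features in all. Since the rule used all 4 stage values, the levels below are a description and carry no test.

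Buds of peach and other temperate fruit trees are formed in summer, stop growing in autumn and resume growth only after a long exposure to cold, which is counted in chilling units. The phase in which buds cannot grow even in warmth is called endodormancy, and the following phase, in which they wait only for warm temperatures, ecodormancy. A transcript that is high at the middle stages sampled and low at the first and the last follows neither a steady decline nor a steady build-up with chilling.

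All samples were flower buds of the nectarine cultivar Fantasia from 10-year-old orchard trees, with no treatment other than the season. Buds of 0CU were collected on day 5 of November 2018, those of 200CU on day 23 of that month, those of 475CU on day 10 of December 2018 and those of 770CU on day 7 of January 2019. Stage, calendar day and weather therefore cannot be told apart. The stage of 770CU is the last one sampled, and the paper does not say that chilling was complete by then. It places 0CU, 475CU and 770CU in endodormancy, and elsewhere speaks of the transition to ecodormancy without naming a stage. The labels list 8 libraries of total RNA depleted of ribosomal RNA, 2 per stage and sequenced with paired-end reads of 150 bases. The scales were removed and a sample pools the buds of several trees, so a level is a mean over many cell types, and fewer cells of a type and less RNA per cell cannot be told apart. The files pair no identifier with a gene name, so floral marker genes could not be looked up and the genes are given by identifier with no role.

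The authors deposited 1 value per stage. For 40 of the 42 genes it could be split into 2 libraries that each held a whole number of fragments, which gave the levels in single libraries. The effective library sizes found in this way were between 18051083 and 25374451 fragments. Which of them is which replicate is unknown, and they are called the larger and the smaller library of their stage, in which order their values are given. The study's methods describe biological replicates from separate groups of trees for all stages but 200CU, which they do not cover. The labels do not tie the libraries to these groups, so the spread of the 200CU libraries in particular may be technical. The 40 genes had between 6 and 11265 fragments in a library, with a median of 508, and in 3 genes (PRUPE_3G112300, PRUPE_6G050400 and PRUPE_7G083100) at least 1 library had fewer than 20.

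**Figure D1:**
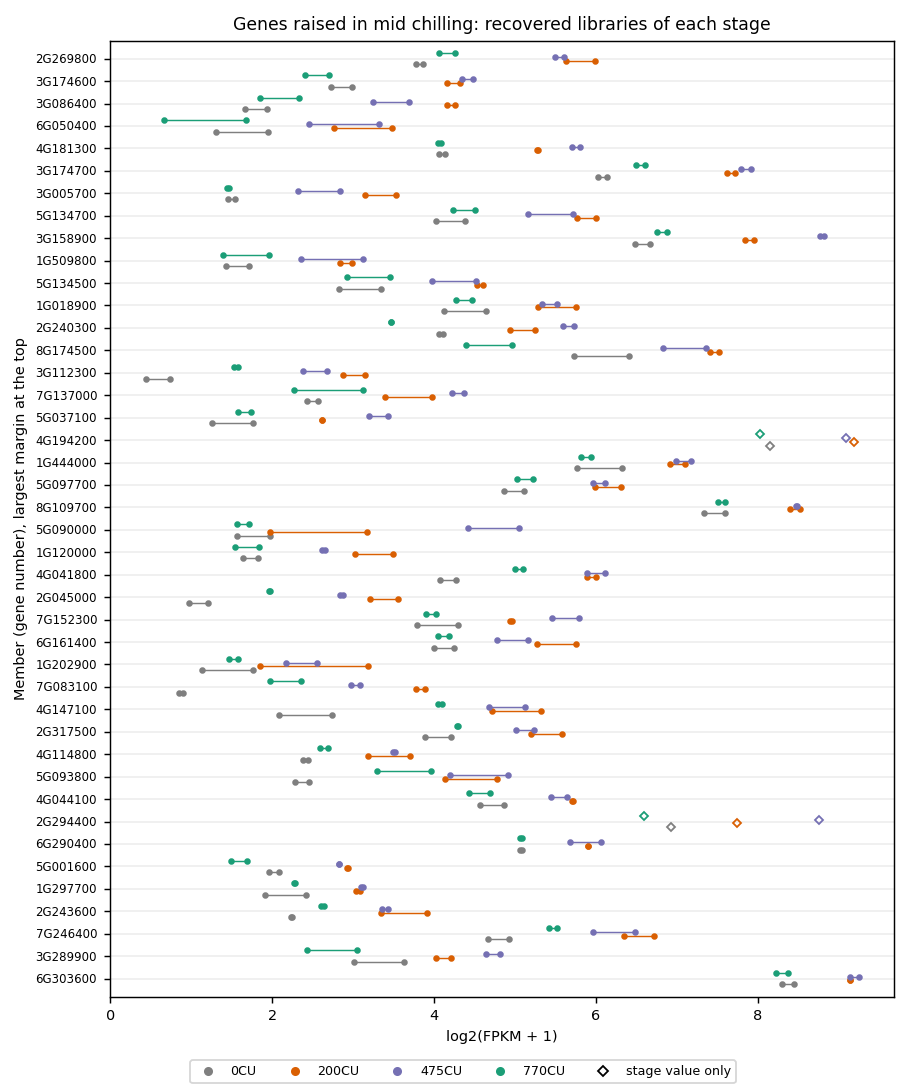
Transcript levels of the 42 genes raised in mid chilling as log2(FPKM + 1), with 2 dots per stage for the recovered libraries joined by a line, and open diamonds for the 2 genes with stage values only. In all 40 genes with recovered libraries the 200CU and 475CU dots lie to the right of the 0CU and 770CU dots.

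The median of the 42 genes was 11.2 FPKM at 0CU, 31.0 FPKM at 200CU, 29.8 FPKM at 475CU and 13.1 FPKM at 770CU. Over the 12883 genes considered the median stayed between 14.3 and 14.6 FPKM. The mean of the mid stages was 1.78 to 6.95 times that of the end stages, with a median of 2.75 times. Of the 42 genes, 24 had their highest level at 200CU and 18 at 475CU, while 23 had their lowest at 0CU and 19 at 770CU. The splits moved when the stages were rescaled to the same total (TPM). Then 37 of the 42 were higher at 770CU than at 0CU, and 11 at 475CU than at 200CU. The genes considered shifted too. Their median difference, later less earlier stage, became 0.31 for the end stages and -0.13 for the mid stages. Their shares were not counted under this rescaling, so its splits are not read as a trait of the group. Under the other scalings run the splits of the 42 stayed close. Rescaling to the total of PRUPE_ features, median ratio factors and quantile normalization gave 27, 24 and 26 higher at 770CU. The same scalings gave 16, 18 and 16 higher at 475CU. The group spanned the range of expression: 10 genes reached 5 to 10 FPKM in their highest stage, 16 reached 10 to 50 FPKM, 8 reached 50 to 100 FPKM and 8 more than 100 FPKM. Among all genes considered 26.3%, 58.8%, 8.77% and 6.16% fell in these classes.

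In each of the 40 genes with recovered libraries, all 4 mid-chilling libraries were above all 4 libraries of the end stages. Over the genes considered this held for 5.76%, and since the rule chose the members on the means of the same libraries nothing is read from the difference. The separation was narrowest in PRUPE_5G090000, where the smaller 200CU library held 2.937 FPKM and the smaller 0CU library 2.936 FPKM. The pooled SD between the 2 libraries of a stage, on the log2(FPKM + 1) scale, was 0.045 to 0.58 per gene with a median of 0.20. The margin was 1.57 to 26.2 times this SD, with a median of 4.38 times, and below 3 times in 8 genes.

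The margin was widest in PRUPE_2G269800, at 1.39. Its libraries held 13.6 and 12.7 FPKM in the 0CU libraries, 48.3 and 62.4 in those of 200CU, 47.7 and 44.0 in those of 475CU and 18.1 and 15.7 in those of 770CU. Both 770CU libraries were above both 0CU libraries, and the mean of the mid stages was 3.37 times that of the ends. PRUPE_3G174600 followed, at 1.39, with 6.89 and 5.60 FPKM in the 0CU libraries, 16.9 and 18.9 in those of 200CU, 19.3 and 21.3 in those of 475CU and 5.51 and 4.28 in those of 770CU. In this gene the libraries of each end stage lay far below those of mid chilling, and those of 770CU were below those of 0CU.

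The most abundant members were PRUPE_6G303600 and PRUPE_4G194200. PRUPE_6G303600 held 314 and 348 FPKM in the 0CU libraries, 559.8 and 563 in those of 200CU, 606 and 564 in those of 475CU and 332 and 297 in those of 770CU. Its libraries were close within stages, with a pooled SD of 0.086, and its margin of 0.76 was the smallest of the group. PRUPE_4G194200, whose libraries could not be recovered, had stage values of 284, 581, 545 and 259 FPKM in the order of chilling. After PRUPE_6G303600, the gene closest to the threshold on the inside was PRUPE_3G289900, at a margin of 0.77. It held 7.04 and 11.4 FPKM in the 0CU libraries, 15.3 and 17.6 in those of 200CU, 23.9 and 27.2 in those of 475CU and 7.26 and 4.40 in those of 770CU. Just outside were PRUPE_3G245100, at 0.72 with stage values of 3.75, 16.8, 22.2 and 9.79 FPKM, and PRUPE_4G035700, at 0.71 with 14.4, 24.2, 25.3 and 7.93 FPKM. The profiles on either side of the threshold had the same outline, so the number of genes depends on where it is set.

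The least and the most variable member were looked up after their values had been seen. PRUPE_4G181300 had the smallest SD between libraries, 0.045, with 15.6 and 16.6 FPKM in the 0CU libraries, 37.7 and 37.9 in those of 200CU, 54.7 and 51.3 in those of 475CU and 15.6 and 16.0 in those of 770CU. Its end stages overlapped, and its 475CU libraries were both above those of 200CU. PRUPE_6G050400 had the largest SD, 0.58, with 1.47 and 2.86 FPKM in the 0CU libraries, 5.79 and 10.1 in those of 200CU, 9.002 and 4.48 in those of 475CU and 2.21 and 0.58 in those of 770CU. The low library of 770CU rests on 11 fragments. The libraries of this gene overlapped both within the mid stages and within the end stages.

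Between the end stages, the question is whether a transcript had returned by 770CU to where it stood at 0CU. The 770CU and 0CU libraries overlapped in 23 of the 40 genes. They were higher at 770CU in 13 and lower in 4 (PRUPE_2G240300, PRUPE_3G174600, PRUPE_5G001600 and PRUPE_8G174500), without overlap. Over the genes considered the 3 shares were 24.5% overlapping, 37.6% higher and 37.9% lower. The rule sets a ceiling on both end stages, so these counts are given without a test. Libraries that differ more within a stage also overlap more readily. The median pooled SD was 0.20 in the group against 0.10 over the genes considered, so overlap alone does not show a return. The median difference from 0CU to 770CU over the 42 genes was 0.08, against -0.01 over the genes considered. Of the 42, 23 were within 0.25 of no difference. The genes considered were not counted in this way, so no return is read from that number. After rescaling to the same total the medians were 0.36 and 0.31.

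**Figure D2:**
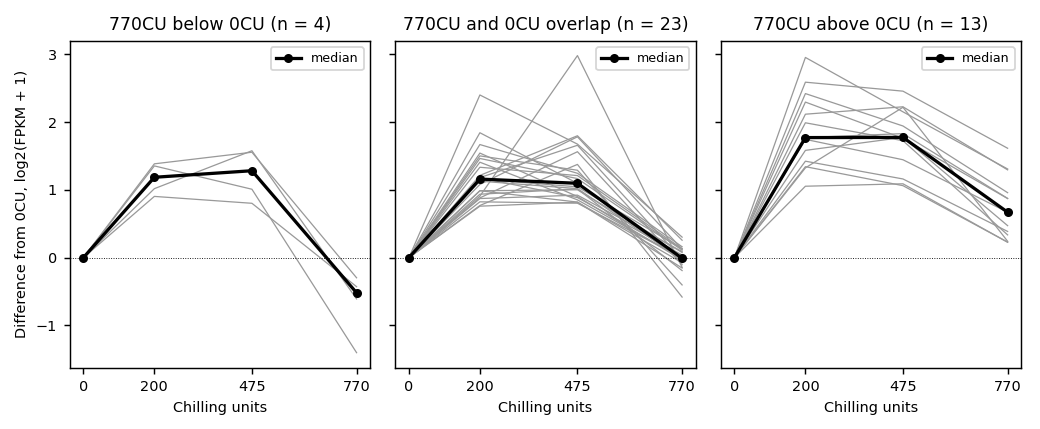
Difference of log2(FPKM + 1) from 0CU against chilling units for single genes (grey) and their median (black), by whether the 770CU libraries were below, overlapped with or were above those of 0CU. The medians at 770CU are -0.52 for 4 genes, -0.01 for 23 genes and 0.67 for 13 genes.

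Of all 42 genes, 6 were at least 0.75 higher at 770CU than at 0CU and 1 was at least 0.75 lower, and 6.27% and 6.93% of the genes considered were. The largest difference was in PRUPE_4G147100, with 5.70 and 3.25 FPKM in the 0CU libraries, 38.8 and 25.2 in those of 200CU, 33.7 and 24.5 in those of 475CU and 16.1 and 15.5 in those of 770CU. Its level at 770CU was thus between the start and the middle of chilling, 1.62 above 0CU on the log2(FPKM + 1) scale. PRUPE_8G174500 was the gene lower by the most, with 51.8 and 84.0 FPKM in the 0CU libraries, 168 and 183 in those of 200CU, 164 and 112 in those of 475CU and 30.1 and 20.04 in those of 770CU. This is a difference of -1.40, and all libraries of each end stage lay below those of the mid stages.

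Within mid chilling the group had no common direction, and its split was near that of all genes considered. The 200CU and 475CU libraries overlapped in 15 of the 40 genes, were higher at 475CU in 12 and lower at 475CU in 13. Over the genes considered 44.9% overlapped, 29.3% were higher and 25.8% were lower. The median difference from 200CU to 475CU was -0.11 over the 42 genes, against 0.01 over the genes considered. Of the 42, 18 were within 0.25 of no difference, a number not counted over the genes considered. A difference of at least 0.75 was found in 3 genes upwards and 1 downwards, and in 1.23% and 1.16% of the genes considered. Among the 3 were PRUPE_2G294400, with stage values of 121, 213, 431 and 95.3 FPKM in the order of chilling, and PRUPE_3G158900, with 94.3, 238, 443 and 112 FPKM. Both were above their end stages at 200CU and higher again at 475CU.

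The gene that was higher at 475CU by the most was PRUPE_5G090000, by 2.08. Its libraries held 1.95 and 2.94 FPKM in the 0CU libraries, 7.98 and 2.94 in those of 200CU, 20.3 and 32.2 in those of 475CU and 1.96 and 2.28 in those of 770CU. The smaller 200CU library was at the level of 0CU, so the place of this gene in the group at 200CU rests on 1 library, and its profile is nearer to a peak at 475CU alone. The opposite case was PRUPE_7G083100, lower at 475CU by 0.80, with 0.86 and 0.8 FPKM in the 0CU libraries, 12.7 and 13.7 in those of 200CU, 6.82 and 7.46 in those of 475CU and 4.14 and 2.94 in those of 770CU. Its libraries came down in turn at each step after 200CU without overlap. It had 11 and 9 fragments at 0CU, and its difference of 2.96 from 0CU to 200CU was the largest of the group.

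**Figure D3:**
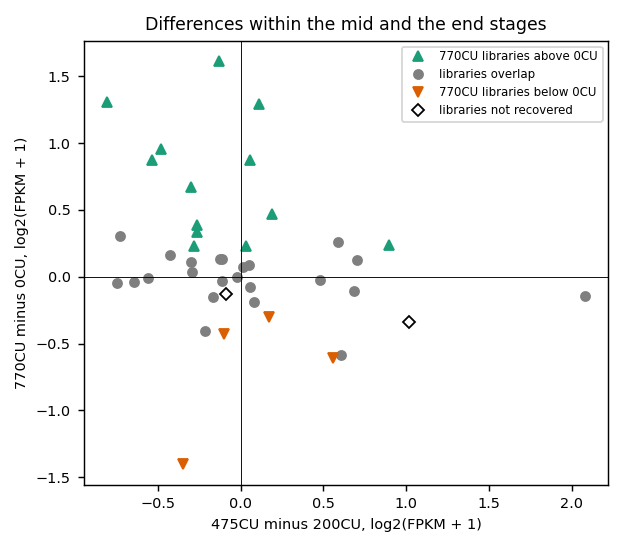
Difference between 770CU and 0CU against the difference between 475CU and 200CU, both of log2(FPKM + 1), for each of the 42 genes, with symbols for the order of the 770CU and 0CU libraries. The genes lie around the origin, with PRUPE_5G090000 at 2.08 on the horizontal axis and PRUPE_4G147100 at 1.62 and PRUPE_8G174500 at -1.40 on the vertical axis.

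The opposite pattern was rarer. By the mirror rule, with the mid stages at least 0.75 below both end stages, 6 genes were found (0.0466% of those considered) against 42. Gaps of any size above 0 were about as frequent in both directions, with 1992 genes (15.5%) above and 1944 (15.1%) below. The unequal numbers were thus found among the wide gaps. Genes at least 0.75 higher at 200CU than at 0CU numbered 525 (4.08%), and those at least 0.75 lower at 770CU than at 475CU 540 (4.19%). All 42 genes belong to both sets by the rule, so 483 of the first and 498 of the second are outside the group. None of the 524 features with XLOC or ENSRNA identifiers and at least 5 FPKM met the margin.

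**Figure D4:**
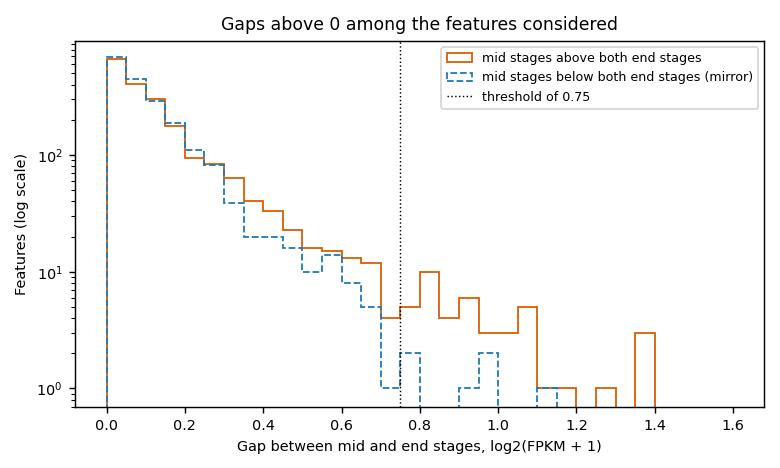
Number of genes considered (log scale) by the gap between mid and end stages in log2(FPKM + 1), for mid stages above (solid) and below (dashed) both end stages. To the right of the dotted threshold at 0.75 lie 42 and 6 genes.

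The identifiers with names in the study's text were outside the group. CMT3-like, HDA19-like, MBD8-like, ATXR7-like, SUVR2-like and JMJ24-like, all putative regulators of chromatin, had margins between -0.55 and -0.18. The ubiquitin gene ppeUBQ, a housekeeping gene of the study's PCR, had stage values of 84.9, 42.6, 69.7 and 81.9 FPKM in the order of chilling, so both its mid stages were below both end stages. PpFLESHY was below 5 FPKM at all stages.

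The digit before the G of an identifier stands for the chromosome. The 42 genes were spread over all 8 chromosomes, with 2 on chromosome 8 and 7 each on chromosomes 3 and 5, or between 0.16% and 0.566% of the genes considered there. In 2 places a pair of members stood next to each other in the table's order of gene numbers, PRUPE_3G174600 with PRUPE_3G174700 and PRUPE_5G134500 with PRUPE_5G134700. These 4 genes are 9.52% of the group, while 0.382% of the other genes considered were next to a member. No further pair was found within 10 positions.

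PRUPE_5G134500 held 6.08 and 9.13 FPKM in the 0CU libraries, 22.1 and 23.4 in those of 200CU, 22.0 and 14.7 in those of 475CU and 9.98 and 6.61 in those of 770CU. PRUPE_5G134700 held 15.3 and 19.9 FPKM in the 0CU libraries, 53.5 and 63.0 in those of 200CU, 51.4 and 34.9 in those of 475CU and 21.7 and 17.9 in those of 770CU. The second was 2.18 to 2.71 times the first in all 8 libraries, and the libraries in which it was high or low within a stage were the same. The SD of the log2 ratio over the libraries was 0.12. Both genes were chosen for the same outline over the stages, which limits how far their ratio can vary between stages, so nothing is read from it. PRUPE_3G174700 was more abundant than its neighbour PRUPE_3G174600, with 64.2 and 69.1 FPKM in the 0CU libraries, 209 and 195 in those of 200CU, 221 and 241 in those of 475CU and 96.3 and 89.5 in those of 770CU. This pair ran less closely together, with an SD of 0.39 and ratios of 9.32 to 20.9, the highest in the 770CU libraries, where PRUPE_3G174700 stayed above its 0CU level and PRUPE_3G174600 lay below its own. Whether neighbours are similar copies that share reads was not tested.

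The recovered length of a gene, which the rule did not use directly, was 445 to 3738 bases in the group, with a median of 1290. A shorter gene holds fewer fragments at the same FPKM, so its stage values are less certain. Length is therefore not independent of the choice of the group. Over all genes considered the median was 2274, and 31 of the 40 genes were shorter than that. Genes considered whose stages differed by at least 0.75 in any direction had a median length of 1756, and 28 of the 40 genes were shorter than that too. The group was thus shorter than genes that changed in general, by its median, which is a description over 40 genes with no test.

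**Figure D5:**
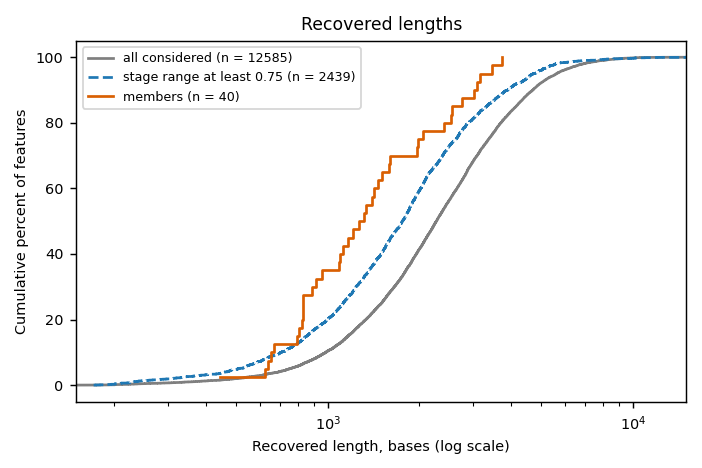
Cumulative percent of features by recovered length in bases (log scale) for the 40 members with a recovered length, the 2439 genes considered with a stage range of at least 0.75, and all 12585 genes considered with a recovered length. The curve of the members lies furthest to the left over most of its range, with a median of 1290 against 1756 and 2274.

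The SD between the libraries of a stage was also larger in the group than in other genes. The rule used the means of these same libraries, and less certain means can meet a margin more readily. The larger SD is therefore not read as a trait of the group. The median of the pooled SD per gene was 0.20, against 0.10 over the genes considered and 0.16 over those with a stage range of at least 0.75, and 35 of the 40 genes were above the median of the genes considered and 27 above that of the genes with such a range. At 0CU 30 of the 40 genes were higher in the smaller library, as were 53.2% of the genes considered and 56.4% of those with a stage range of at least 0.75. At 770CU 28 were higher in the larger library, against 54.5% and 65.0%. The median of the 40 genes was 6.97 FPKM in the larger and 10.3 FPKM in the smaller 0CU library, while that of the genes considered was 14.1 FPKM in both. The part of these single libraries in the choice of the group was measured by leaving each out. Only genes with recovered libraries could be counted, so these numbers stand beside 40 members. Without the larger 0CU library 35 genes met the rule, of which 30 were members. Without the smaller one 51 met it, of which 39 were members. Leaving out the larger and the smaller 770CU library gave 46 and 36 genes, of which 40 and 36 were members. The lowest number, 32, came without the larger 475CU library, and all 32 were members.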

How the data were processed

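The authors deposited FPKM values for 22285 features with 1 column per stage, and there were 0 unused columns of values. The processing notes name Trimmomatic 0.39, HISAT2 and featureCounts without their roles, and the genome build used for the RNA-Seq reads is not given in the sources used here, since the paper's methods name one for the ChIP-Seq reads only. The labels list 2 libraries for every stage, whereas the paper's methods describe 3 biological replicates of the buds of 475CU. The identifiers were looked up among 26412 RefSeq genes (assembly Prunus_persica_NCBIv2) with 0 matches, so no names, positions or sequences are given.

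The rule was applied to log2(FPKM + 1), which understates differences of low genes, leaving out 6 features with gene numbers 1G531100 to 1G531700. To obtain single libraries, each stage value was split into 2 parts that are whole fragments over a common length, from 30 to 20000 bases, and over the effective size of the library. This succeeded for 21964 features (98.6%). Of 2000 features shifted by up to 1e-06 it succeeded for 11, against 1975 unshifted. On simulated data 22075 of 22285 features were solved, 22072 of them with the true values. How the authors set the sizes is not known, so these need not be mapped fragments, and for genes with few fragments the length may be a divisor of the true one.

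The members, lists and alternatives were chosen with earlier results of these data known. The genes named are the 2 with the widest margin, the 2 most abundant, the 2 just inside and 2 just outside the threshold, those with the largest differences within the mid and end stages, and the members of the longest run of neighbouring gene numbers. Others, singled out by small counts or by their spread, were added after their values were seen. No test was run. Python 3.11.15 with numpy 2.4.6, pandas 2.3.3, numba 0.67.0 and matplotlib 3.10.9 was used.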

Additional observations from a re-analysis of the deposited data

How the results depend on the processing

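The number of genes followed the threshold: 102 met the rule at a margin of 0.5 and 14 at a margin of 1. The pseudocount, the floor and the scaling gave between 32 and 52 genes. Rescaling the stages to the same total (TPM) moved the median difference of the genes considered from -0.01 to 0.31 between 0CU and 770CU. With it 32 genes met the rule, of which 25 were members. The median difference of the members from 0CU to 770CU was 0.36, or close to the shift of all genes, and 37 members were higher at 770CU. For the mid stages the median difference was -0.24 in the members and -0.13 over the genes considered. Of the members, 11 were higher at 475CU than at 200CU. Rescaling to the total of PRUPE_ features, which leaves out those with XLOC and ENSRNA identifiers, kept 33 members. With it the median difference of the genes considered from 0CU to 770CU was 0.02. Quantile normalization kept 37 members. The mirror rule gave 6 to 9 genes under the scalings run.

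Each recovered library was left out in turn, over genes with recovered libraries only, so the values stand beside 40 members. This gave 32 to 51 genes, a median margin of 0.86 to 0.96, and 18 to 31 members higher at 770CU than at 0CU. The median difference of the members from 0CU to 770CU lay from -0.01 (without the larger 0CU library) to 0.26 (without the smaller), so the order of the end stages as a group is not resolved. From 200CU to 475CU it lay from -0.14 to -0.01, with 15 to 20 members higher at 475CU. No paired analysis was possible because each stage has a single column and the libraries split from it have unknown replicate numbers. Medians were taken as moved beyond 0.22, and numbers beyond 1.5 times. The 0.22 is the SD between the 2 library medians of a stage over the 40 members, pooled over the stages.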
